A study of Sus scrofa with 9 samples.

Results

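miR-202 is a microRNA (miRNA) known mainly from the somatic cells of the ovary and testis, and here it was followed in porcine granulosa cells (PGCs) under oxidative stress. Its members were every entry of the small-RNA table named miR-202, with either arm or any length variant, and 3 of the 1345 entries met this rule. They were the 5p arm (ssc-miR-202-5p), the 3p arm (ssc-miR-202-3p_R+2) and a longer form of the 5p arm listed under a mouse name (mmu-miR-202-5p_R+2). Primary granulosa cells of Landrace and Yorkshire crossbred sows were kept for 12 h with 0 μM H2O2 (CON), 100 μM H2O2 (LOS) or 300 μM H2O2 (MOS), and 3 libraries were made per group. The labels name no other agent in any group. The cells came from healthy follicles and grew in serum before treatment, and the sources used here do not say whether the libraries of a group came from separate animals or cultures, so the p-values below measure the spread between these libraries only.

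A miRNA gene is transcribed as a hairpin, which is cut to a short duplex of a 5p and a 3p strand. One strand is usually loaded into an Argonaute protein and the other is mostly degraded, and the loaded strand finds target mRNAs mainly through its seed, bases 2 to 8. In mice miR-202 is found in the supporting cells of the gonads, and the 3p arm has been described as related to the let-7 family by its seed. In the pig RefSeq annotation (Sscrofa11.1) the gene MIR202 lies in no other gene, between UTF1, which encodes a chromatin-associated transcription factor, and ADAM8, which encodes a membrane metalloprotease.

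The sequences of the members as deposited are shown with let-7a, because the seed sets which mRNAs an arm can pair with. Capitals mark bases 2 to 8.
ssc-miR-202-5p: tTCCTATGcatatacttcttt
mmu-miR-202-5p_R+2: tTCCTATGcatatacttctttgt
ssc-miR-202-3p_R+2: aGAGGTGTaggcatgggaaac
ssc-let-7a: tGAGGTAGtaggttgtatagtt
The mouse-named entry is the 21-nt 5p arm with 2 more bases at its 3′ end, so both 5p forms have the same seed. The 3p arm shared 5 bases in a row with let-7a, counted from base 2 to base 6, and differed after them. No other entry of the table had bases 2 to 8 of any member. Bases 2 to 6 of the 3p arm were shared by 18 other entries, of which 14 carried let-7 or miR-98 names, whereas those of the 5p arm were shared by 3. Folded against each other with RNAduplex, the 5p and 3p arms formed 18 base pairs, a description of the letters and not of a measured duplex.

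The deposited values are normalized counts, a library-scaled signal that the authors made from reads. Their totals were 4967112 to 6098582 per library. From the steps between low values, depth was estimated at 3896863 to 8382479 reads per library. The MOS libraries (3896863 to 4660846) and CON1 (4413882) were the shallowest. The MOS libraries also varied more, with correlations between libraries of 0.957 to 0.965 in MOS against 0.984 to 0.990 in CON, and MOS3 stood apart in that leaving it out raised the count of called entries between MOS and CON from 222 to 358. An entry was tested if it reached a value of 10 in at least 3 libraries, which 757 entries and 2 of the 3 members (the 5p and 3p arms) did. A call is an adjusted p under 0.05 from limma on log2(value + 1), Benjamini-Hochberg adjusted over the 757 entries, and fold changes are on that scale.

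The 5p arm was abundant in untreated PGCs and fell at the high dose. ssc-miR-202-5p stood between the 95th and the 106th place from the top in the CON libraries, between the 88th and the 97th in LOS, and between the 132nd and the 157th in MOS. The 3 CON libraries held 2979, 3633 and 3623 normalized counts, the LOS libraries 3948, 3653 and 3966, and the MOS libraries 1662, 1781 and 1187. All 3 MOS libraries lay below every CON and LOS library, and MOS3 was the lowest of the 9. The mean was 3412 ± 375 for CON, 3856 ± 176 for LOS and 1543 ± 314 for MOS (SD, n = 3 each). Between 1096 and 5805 estimated reads stood behind each of these values. Scaled to each library's own total (CPM of the normalized counts), the arm stood at 534 to 619 CPM for CON, 601 to 693 CPM for LOS and 235 to 358 CPM for MOS.

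**Figure D1:**
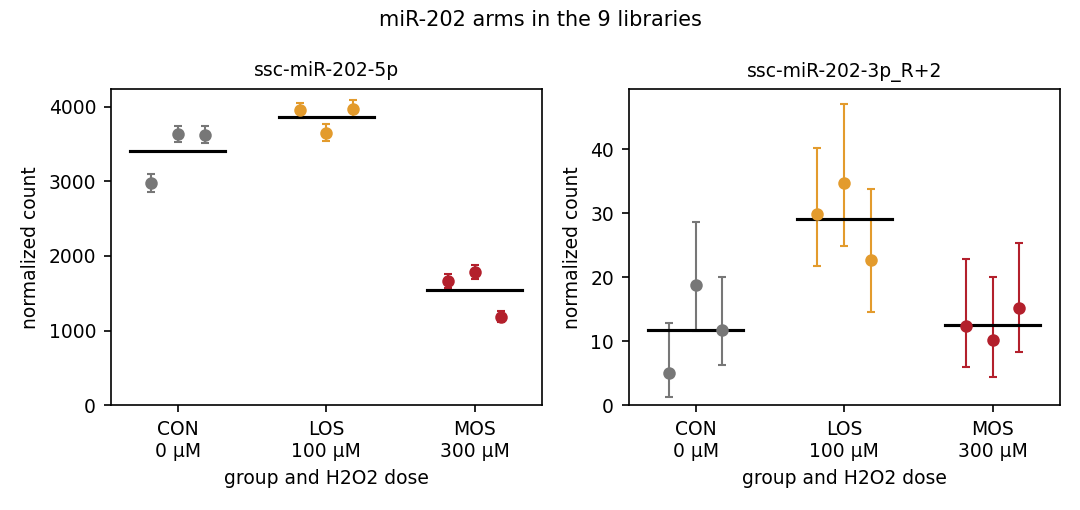
Normalized counts (y axis, linear from 0) of ssc-miR-202-5p (left) and ssc-miR-202-3p_R+2 (right) in the CON, LOS and MOS libraries (x axis, 0, 100 and 300 μM H2O2). Points are libraries in the order 1 to 3, error bars are 95% exact Poisson intervals of the estimated reads and cover counting error only, and black lines are group means; the 5p arm lies at 1187 to 1781 in MOS, below every CON and LOS library, while the 3p arm is highest in LOS, at 22.8 to 34.8.

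With 300 μM H2O2, miR-202-5p was at less than its untreated level. Its mean was 54.8% lower in MOS than in CON, and limma gave a log2 fold change of -1.16 (SE 0.16, 95% interval -1.51 to -0.81, adjusted p = 0.000378). The value was lower in all 9 pairings of a MOS with a CON library, and the exact two-sided permutation test gave p = 0.1, the smallest that 3 against 3 libraries allow. In this comparison 29.3% of the 757 entries were called, 9.11% as lower, and the groups did not overlap for 41.3%. The 5p arm was the 35th lowest fold change of the 757, whose median was 0.07. Without MOS3 the log2 fold change was -0.98 and remained called. After all libraries were brought to 1 common total (equal totals) it was -0.95 (adjusted p = 0.00114), and the called entries split into 194 that rose and 31 that fell, against 153 and 69 on the deposited scale.

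Among entries that were as abundant, the fall of the 5p arm was near the extreme. Of the 178 tested entries with a CON mean of at least 1000, a level chosen after the values were seen, 11 rose and 33 fell between MOS and CON, and their median was -0.15. The only one of them with a lower fold change than miR-202-5p was hsa-miR-31-3p_R+1 (log2 fold change -1.17, adjusted p = 2.00e-05), the less abundant arm of a miRNA studied in cell growth. These are ranks, and the difference between the 2 entries was not tested.

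The lower dose showed no such fall. Between LOS and CON the log2 fold change of miR-202-5p was 0.18 (SE 0.16, 95% interval -0.17 to 0.53, adjusted p = 0.935), and this interval leaves out a fall of the size measured at 300 μM. All 3 LOS values lay above all 3 CON values, and the permutation p was 0.1. Such separation was not rare, since the groups did not overlap for 20.6% of the entries, while 2.91% were called.

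The doses themselves differed in the 5p arm. The log2 fold change of MOS against LOS was -1.34 (SE 0.16, 95% interval -1.69 to -0.99, adjusted p = 0.000211), and the mean was 60.0% lower in MOS than in LOS. All 9 pairings of libraries went this way, with a permutation p of 0.1. In this comparison 29.7% of the entries were called, 10.8% as lower, and the groups did not overlap for 41.1%. At equal totals the split was 229 rises and 44 falls, against 143 and 82, and the 5p arm had -1.10 (adjusted p = 0.000651). The 5p arm was the 25th lowest of the 757, and of the 178 abundant entries none had a lower fold change. Both contrasts that contain MOS use the same 3 MOS libraries, so they are not independent of each other.

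**Figure D2:**
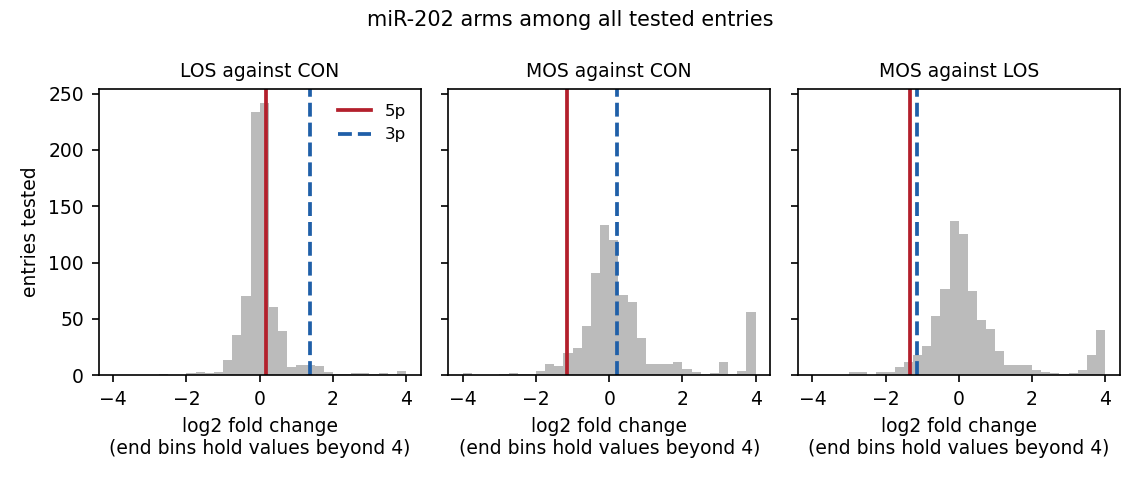
Number of tested entries (y axis) by log2 fold change (x axis, bins of 0.25, with values beyond 4 placed in the end bins) in 3 panels: LOS over CON, MOS over CON, and MOS over LOS. The red solid line marks the 5p arm of miR-202 (0.18, -1.16 and -1.34) and the blue dashed line the 3p arm (1.37, 0.23 and -1.14), so the 5p line is far to the left only where MOS is compared.

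The 3p arm was the scarcer strand in every library and followed another order. The 3 CON libraries held 5.06, 18.8 and 11.7 normalized counts of it, the LOS libraries 29.9, 34.8 and 22.8, and the MOS libraries 12.5, 10.2 and 15.2. Every LOS library was above every CON and MOS library, whereas the MOS values lay inside the range of CON. Such separation was common, at 20.6% of all entries between LOS and CON and 41.1% between MOS and LOS. The values of the 3p arm rest on 4 to 44 estimated reads per library, and for CON1, the lowest, the 95% exact Poisson interval was 1.38 to 12.9 normalized counts.

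None of the 3 contrasts of ssc-miR-202-3p_R+2 passed the test over all entries. For LOS against CON the log2 fold change was 1.37 (SE 0.42, 95% interval 0.42 to 2.32, adjusted p = 0.219), the 28th highest of 757, with LOS higher in 9 of 9 pairings and a permutation p of 0.1. For MOS against CON it was 0.23 (SE 0.42, 95% interval -0.72 to 1.18, adjusted p = 0.728, permutation p = 0.8), an interval that leaves out neither a rise nor a fall. For MOS against LOS it was -1.14 (SE 0.42, 95% interval -2.09 to -0.19, adjusted p = 0.0684), with MOS lower in 9 of 9 pairings and a permutation p of 0.1. This last value was close to the threshold and crossed it in 4 of 18 other settings, for example with the 6 MOS and LOS libraries alone (-1.14, adjusted p = 0.0338). The sign for MOS against CON turned when CON1 was left out (-0.24, adjusted p = 0.667). The groups did not overlap for 20.6% of all 757 entries between LOS and CON, and for 41.1% between MOS and LOS.

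The mouse-named 23-nt form of the 5p arm had 2.72 normalized counts in LOS1 and 3.80 in LOS3, which are 4 estimated reads each. It was listed at 0 in LOS2 and in all CON and MOS libraries. Few listed values lay under 4 reads (4.41 to 7.63% of positive values per library), so a 0 here says only that the form was not listed, and no comparison between groups was made.

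Both arms come from 1 hairpin, and their ratio within a library does not depend on how that library was scaled. The tested form of the ratio adds 1 to each arm, so it can shift with the scaling where the 3p values are low. The 5p arm outnumbered the 3p arm 589, 194 and 309 times in CON, 132, 105 and 174 times in LOS, and 133, 175 and 78.3 times in MOS. The ratio was thus lower in every treated library than in every CON library, while LOS and MOS overlapped. Different arms went with this at the 2 doses. Between LOS and CON the log2 fold change was 0.18 for the 5p and 1.37 for the 3p arm, neither called. Between MOS and CON it was -1.16 for the 5p arm, which was called, and 0.23 for the 3p arm. The 3p share of both arms lay between 0.169 and 0.513% for CON, between 0.571 and 0.943% for LOS and between 0.569 and 1.26% for MOS. miR-202 had one of the more unequal hairpins, the 7th of the 75 hairpins with both arms tested, at a mean log2 ratio of 7.35 where the median size over hairpins was 2.77.

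**Figure D3:**
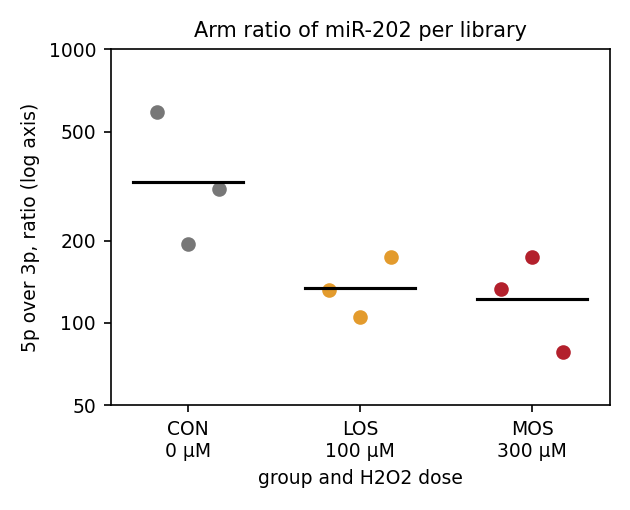
Ratio of the 5p to the 3p arm of miR-202 (y axis, log scale) in each CON, LOS and MOS library (x axis, 0, 100 and 300 μM H2O2). Points are libraries in the order 1 to 3 and black lines are geometric means; all 6 treated libraries lie at 78.3 to 175, below the 3 CON libraries at 194 to 589.

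The lower arm ratio did not pass the test over hairpins. The log2 change was -1.19 for LOS against CON (SE 0.41, 95% interval -2.13 to -0.25, adjusted p = 0.288) and -1.39 for MOS against CON (SE 0.41, 95% interval -2.33 to -0.45, adjusted p = 0.0857), by limma over the 75 hairpins, with a permutation p of 0.1 for each. These were the 2nd and the 3rd lowest of the 75 hairpins. For LOS against CON 0.0% of the hairpins were called and the groups did not overlap for 21.3%, and for MOS against CON 8.0% were called and the groups did not overlap for 40.0%. With a pseudocount of 10 in place of 1, which weakens the low 3p values, MOS against CON was -1.25 with an adjusted p of 0.0101. The 5p arm had -1.15 and the 3p arm 0.09 at that setting, so this call mostly restates the fall of the 5p arm. LOS against CON shrank to -0.70 there (adjusted p = 0.307). With the pseudocount of 1, the change between MOS and LOS was -0.20 (SE 0.41, 95% interval -1.14 to 0.74, adjusted p = 0.790), with 0.0% called and 29.3% not overlapping. The sign of this last value turned without MOS3 (0.11, adjusted p = 0.855). In the contrasts with no calls, 8 hairpins for LOS against CON and 21 for MOS against LOS had an unadjusted p under 0.05, and no other tool was run. The 2 contrasts against CON share the CON libraries, and CON1, with the highest ratio, has the fewest 3p reads.

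Of the 18 entries that share bases 2 to 6 with the 3p arm, 14 carry let-7 or miR-98 names. The let-7 and miR-98 family held 29 entries in all, so its counts also cover entries without those bases. Of its 25 tested entries, both arms included, 0 were called between LOS and CON, where 2.91% of all entries were, and 0 rose and 3 fell between MOS and CON, where 153 and 69 of all 757 did. The 3 that fell were hsa-let-7c-3p, hsa-let-7e-3p and hsa-miR-98-3p_1ss22CT, which are 3p arms and do not carry the let-7 seed. The family's median log2 fold change was -0.08 for LOS against CON and -0.05 for MOS against CON, where all entries had medians of 0.00 and 0.07. With a filter of 50, all 503 entries had a median of -0.005 for MOS against CON, with 79 rises and 58 falls. let-7a, a major mature let-7, averaged 79909 ± 1956 normalized counts in MOS and 77433 ± 992 in CON (SD, n = 3 each), with a log2 fold change of 0.05 (adjusted p = 0.761). ssc-let-7f and ssc-let-7g had values of -0.05 (adjusted p = 0.748) and -0.18 (adjusted p = 0.266). Between MOS and LOS, where 143 of all entries rose and 82 fell, 0 of the family rose and 1 fell, hsa-let-7e-3p. These signs depended on the scaling. At equal totals the family's median was 0.16 for MOS against CON, with 1 rise (ssc-let-7i_R+3) and 0 falls. All 757 entries had a median of 0.28 there, with 194 rises and 31 falls. For MOS against LOS the family's median was 0.22, with 8 rises and 0 falls, and that of all entries 0.32, with 229 and 44.

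Other miRNAs known mainly from the gonads moved in both directions. Of 7 tested entries, 0 were called between LOS and CON, where 2.91% of all entries were, and the median was 0.44. Between MOS and CON, where 29.3% of all entries were called, 2 rose and 3 fell, with a median of -0.74. Those that fell belong to the miR-34b/c cluster, which p53 is known to activate and which is abundant in testis. ssc-miR-34c, its most abundant form, averaged 256 ± 106 normalized counts in MOS and 408 ± 41.1 in CON (SD, n = 3 each), a log2 fold change of -0.74 (SE 0.25, adjusted p = 0.0477). mmu-miR-34b-3p_1ss10CT had a log2 fold change of -1.58 (SE 0.50, adjusted p = 0.0402) and mmu-miR-34b-5p one of -1.68 (adjusted p = 0.00374). The 2 that rose were miR-449a under a horse and a human name (log2 fold change 1.86, adjusted p = 0.00477), which hold the same 9 values and are not separate measurements. Between MOS and LOS, where 29.7% of all entries were called, the same 2 rose and 4 fell. The fourth was hsa-miR-34c-3p (-1.53, adjusted p = 0.0382), and ssc-miR-34c had -1.19 (adjusted p = 0.00597). At equal totals the fall of ssc-miR-34c against CON was no longer called (-0.53, adjusted p = 0.124), nor was that of mmu-miR-34b-3p_1ss10CT (-1.38, adjusted p = 0.0655). mmu-miR-34b-5p was still called as lower (-1.48, adjusted p = 0.00633), and the miR-449a entries as higher (2.07, adjusted p = 0.00237).

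miRNAs studied in granulosa cells for growth, steroid output or death were also split. Of 41 tested entries 8 rose and 9 fell between MOS and CON, with a median of -0.11, where 153 of all 757 entries rose and 69 fell, with a median of 0.07. Between MOS and LOS 4 rose and 11 fell, with a median of -0.19, where 143 of all entries rose and 82 fell, with a median of 0.08. The split of all entries depended on abundance. With a filter of 50, 79 of 503 entries rose and 58 fell between MOS and CON, with a median of -0.005. Between MOS and LOS 75 rose and 71 fell at that filter, with a median of -0.004. Of the 178 with a CON mean of at least 1000, 11 rose and 33 fell between MOS and CON (median -0.15). The list was not compared with entries of matched abundance. Between LOS and CON, where 2.91% of all entries were called, 1 entry of the list was. This was hsa-miR-222-5p_L+2R-1, which rose by 2.85 on the log2 scale (adjusted p = 6.61e-06), and the list's median was 0.04. The most abundant, ssc-miR-21_R+1, a miRNA known for opposing cell death, fell in MOS (log2 fold change -0.52, SE 0.12, adjusted p = 0.00902 against CON). ssc-miR-143-3p, a miRNA best known from smooth muscle, had -0.27 (SE 0.18, adjusted p = 0.287) and ssc-miR-125b, the homolog of lin-4, had 0.31 (SE 0.18, adjusted p = 0.221). At equal totals 8 rose and 5 fell between MOS and CON, with a median of 0.10. Of all 757 entries 194 rose and 31 fell there, with a median of 0.28. Between MOS and LOS 6 of the list rose and 5 fell, with a median of 0.05, against 229, 44 and 0.32 for all entries.

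The entries whose pattern was most like that of the 5p arm were found by Pearson's r of the log2 values over the 9 libraries, with the members left out. This is a description, since all points share the libraries and their depth and the group means set most of r. ssc-miR-455-5p was the closest (r = 0.962), followed by ssc-miR-184 (0.945), ssc-miR-455-3p (0.939), ssc-miR-21_R+1 (0.937) and hsa-miR-26b-5p_R+1 (0.934), and 13 entries reached 0.9. ssc-miR-455-5p averaged 682 ± 38.3 normalized counts in MOS and 956 ± 20.1 in CON (SD, n = 3 each), a log2 fold change of -0.49 (SE 0.10, adjusted p = 0.00678). ssc-miR-184 averaged 49.4 ± 7.58 in MOS and 90.9 ± 6.29 in CON, a log2 fold change of -0.88 (SE 0.19, adjusted p = 0.00689). Both arms of the miR-455 hairpin were thus among the 5, and ssc-miR-455-3p had -0.57 (SE 0.15, adjusted p = 0.0167). hsa-miR-26b-5p_R+1 had -0.41 (SE 0.08, adjusted p = 0.00359). At equal totals ssc-miR-184 and ssc-miR-21_R+1 were still called as lower in MOS than in CON (-0.67, adjusted p = 0.0281, and -0.31, adjusted p = 0.0404), whereas ssc-miR-455-5p (-0.28, adjusted p = 0.0710), ssc-miR-455-3p (-0.36, adjusted p = 0.0912) and hsa-miR-26b-5p_R+1 (-0.20, adjusted p = 0.0820) were closer to 0 and not called.

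The 3p arm of miR-202 itself had an r of 0.384 with the 5p arm, and no entry reached 0.9 with it. Its closest entries were hsa-miR-27a-5p (r = 0.820), hsa-miR-29b-1-5p (0.818), ssc-miR-139-5p_R+1 (0.799), PC-5p-27034_54 (0.705) and hsa-miR-505-5p_R+1 (0.674). The first, the less abundant arm of miR-27a, averaged 552 ± 41.5 normalized counts in LOS and 157 ± 11.6 in CON (SD, n = 3 each), a log2 fold change of 1.81 (SE 0.13, adjusted p = 3.39e-05). It averaged 253 ± 4.22 in MOS, with a log2 fold change against CON of 0.69 (SE 0.13, adjusted p = 0.00252). hsa-miR-29b-1-5p, as scarce as miR-202-3p, averaged 31.9 ± 1.84 in LOS and 15.0 ± 3.30 in CON, and was not called (log2 fold change 1.06, SE 0.39, adjusted p = 0.345).

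**Figure D4:**
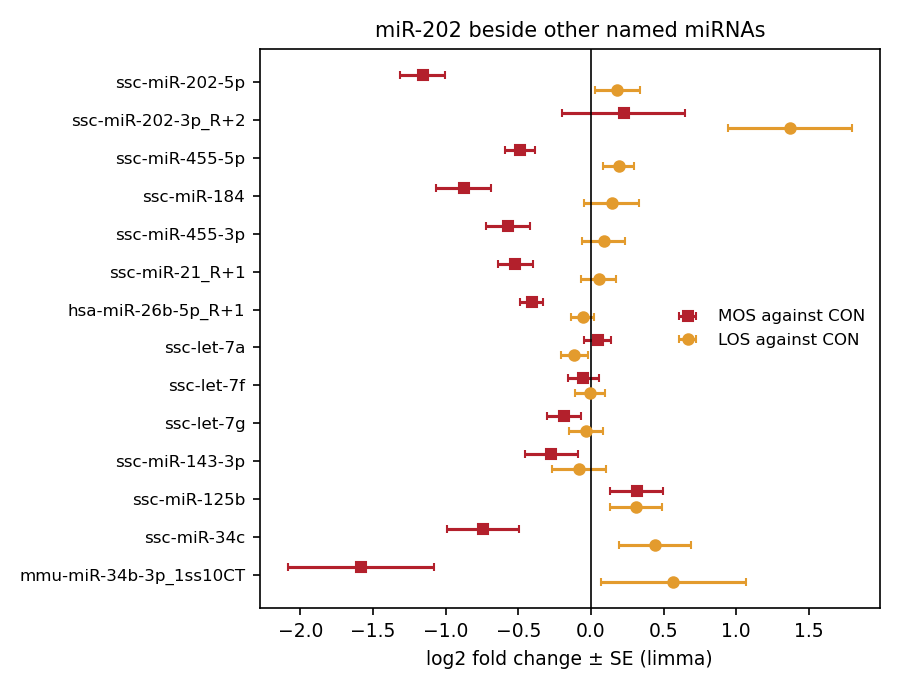
Log2 fold change with its standard error from limma (x axis) for MOS against CON (red squares) and LOS against CON (orange circles) in miR-202, the 5 entries most like its 5p arm, and the most abundant let-7, granulosa and other gonad-enriched entries (y axis). The 5p arm at -1.16 in MOS lies further left than the entries most like it, at -0.88 to -0.41, and the 3 let-7 entries lie between -0.18 and 0.05 in MOS on the deposited scale (0.03 to 0.26 at equal totals).

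Markers of other cells were mixed between MOS and CON, where 29.3% of all entries were called. The leukocyte and epithelial lists held the most calls, and the other lists are given at the end. The 4 leukocyte entries (miR-142, miR-150 and miR-223), none at 0, had sums between 2460 and 2678 normalized counts for CON, between 2389 and 2821 for LOS and between 1005 and 2098 for MOS, where the lowest sum was in MOS1 and the highest in MOS3. Between MOS and CON 2 of them fell, ssc-miR-142-3p (log2 fold change -1.29, adjusted p = 0.0164) and hsa-miR-223-3p (-1.16, adjusted p = 0.0308), and ssc-miR-150 rose (1.01, adjusted p = 0.0376). At equal totals ssc-miR-142-3p (-1.08, adjusted p = 0.0361) was the only one of the 4 called as lower. The 7 epithelial entries (miR-141, miR-200 and related names) summed to 6.32 to 17.0 in CON, where 5 of the 7 were at 0, 138 to 187 in LOS and 164 to 345 in MOS, with the lowest MOS sum in MOS3. All 4 tested epithelial entries rose between MOS and CON, where 153 of all 757 entries did. However, bta-miR-200a and mmu-miR-200b-3p_R+1 were at 0 in CON, and hsa-miR-200c-3p was at most 9.02 there. Only a rise could bring such entries up to the filter level, so the count of 4 cannot be weighed against the 153. hsa-miR-141-3p_R+1 was listed at 3.61 to 12.5 in CON and at 63.9 to 138 in MOS. Between LOS and CON 2 of the 4 tested epithelial entries rose, where 2.91% of all entries were called and miR-202-5p was not. Entries of 18 to 20 nt made up between 0.243 and 0.340% of a CON library, between 0.211 and 0.278% of a LOS library and between 0.488 and 0.732% of a MOS library. The part of these in the miR-202 values was not tested. In bulk libraries such as these, fewer cells of a type and less RNA per cell cannot be told apart.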

How the data were processed

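Small RNA was read from primary PGCs of the CON, LOS and MOS groups, 3 libraries each. The authors made TruSeq small-RNA libraries, used ACGT101-miR to discard junk and unrelated RNA classes, and mapped sequences of 18 to 26 nt to miRBase precursors. The deposited values are a signal, the authors' normalized counts for 1345 entries (1 blank line was dropped). How the counts were normalized, and on which genome build, is not given in the sources used here, and labels and methods give different amounts of input RNA.

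Values under 400 were whole multiples (within 0.01) of 1 step in 98.3 to 99.9% of cases, and 81.3 to 85.8% of those multiples were even, so 1 read was taken as a pair of steps. Depth and reads are estimates from this. Intervals are 95% exact Poisson and cover counting error only. No count model was run.

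The entries that reached 10 in 3 or more libraries were fitted with limma 3.58.1 (R 4.3.3, trend) on log2(value + 1) with 1 term, the group, and the 9 libraries together. The arm ratio was fitted as log2((5p + 1)/(3p + 1)) over 75 hairpins. Permutation tests used the 10 splits of 3 against 3, counted with their mirror images, and are exact and two-sided. The fit was tested on simulated data. Of the tested entries 137 share all 9 values with another, none of them a member. RNAduplex was of ViennaRNA 2.7.2, and Python 3.11.15 was used for summaries.

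Named entries were the members, the 5 entries most like each arm, the 3 most abundant of the let-7 and granulosa lists and up to 2 of the lists of other gonad-enriched, leukocyte, red blood cell, endothelial, stroma and theca, epithelial, muscle, and pluripotent and germ cell miRNAs. Entries named outside this rule (single calls of a list, and hsa-miR-31-3p_R+1) were chosen after their values were seen. The members and lists were chosen with earlier results of these data known. The main fit did not pair libraries by replicate number, and the sources used here do not say whether equal numbers mark pairs. Alternatives changed the scaling, pseudocount, filter, trend, libraries in the fit, replicate block and shared sequences.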

Additional observations from a re-analysis of the deposited data

Results flagged for a closer look

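The effect of 300 μM H2O2 on ssc-miR-202-5p differed from that of 100 μM, both taken against CON: the difference of the log2 fold changes was -1.34 (limma adjusted p = 0.000211), with lower values in all 9 pairings of a MOS with a LOS library. The 23-nt form mmu-miR-202-5p_R+2, which enters no comparison, had 2.72 normalized counts in LOS1 and 3.80 in LOS3 and was listed at 0 in the 3 CON libraries.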

How the results depend on the processing

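The calls of miR-202-5p held under all 19 alternatives that were run, at -1.27 to -0.95 for MOS against CON (adjusted p 0.000188 to 0.00462) and -1.45 to -1.10 for MOS against LOS (adjusted p 0.000143 to 0.00194), and LOS against CON was called under none (0.09 to 0.23, adjusted p 0.430 to 1). Leaving out each library in turn gave -1.27 to -0.98, -1.45 to -1.16 and 0.09 to 0.23 for these contrasts. Equal totals moved the median of all entries by 0.21 (MOS against CON) and 0.24 (MOS against LOS) and gave the 5p arm -0.95 and -1.10. With that scaling, 86.2% of the calls for MOS against CON were rises, against 68.9%.

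For the 3p arm, MOS against LOS became a call at pseudocount 10 (-0.79, adjusted p = 0.0335) and with its 6 libraries alone (-1.14, adjusted p = 0.0338). Leaving out each library gave -1.30 to -1.01, with calls without CON1 (adjusted p = 0.0259) and without CON2 (adjusted p = 0.0489), where the change lies in the spread shared over groups. MOS against CON ranged over -0.24 to 0.62, reversed without CON1, and LOS against CON over 0.91 to 1.76. The arm ratio for MOS against CON became a call at pseudocount 10 (-1.25, adjusted p = 0.0101), where the 5p arm alone had -1.15. Leaving out each library gave a ratio change of -1.73 to -1.02 for MOS against CON, -1.53 to -0.82 for LOS against CON, and -0.44 to 0.11 for MOS against LOS, reversed without MOS3. The cause was not tested.

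Counts of called entries moved by over 1.5 times for MOS against CON from 222 to 137 at a filter of 50, 147 without CON2 and 358 without MOS3, for MOS against LOS from 225 to 146 at that filter and 341 without MOS3, and for LOS against CON from 22 to 14 without LOS1 and 39 without MOS3. Same-numbered libraries showed little shared deviation (correlations -0.08 to 0.18, over 0.1 in 2 of 9 pairs, 8 of 18 comparisons best with their own number). This check cannot exclude that they were paired. With the number as a replicate block the 5p arm had -1.16 (adjusted p = 0.00179) and -1.34 (adjusted p = 0.00121), and no call of a member changed. The filter of 50 leaves no value for the 3p arm or the ratio. edgeR and DESeq2 were not run, because the values are not whole reads. The 3p arm rests on 4 to 44 reads per library, which limits how far a change in it could be seen.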

Other observations

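The remaining marker lists gave these values beside miR-202. Calls are for MOS against CON, where 29.3% of all 757 entries were called (at equal totals 194 rose and 31 fell). The 4 muscle entries summed to 976 to 1565 normalized counts in MOS, against 1677 to 1720 in CON, and ssc-miR-1_R+1 fell (log2 fold change -0.73, adjusted p = 0.0223; at equal totals -0.52, adjusted p = 0.0769), 1 of 2 tested. The 5 red blood cell entries summed to 294 to 775 in MOS, with the highest value in MOS2, against 251 to 323 in CON, and 1 of 4 tested, ssc-miR-486, rose (0.69, adjusted p = 0.0249). Of 4 stroma and theca entries 1, ssc-miR-199b-5p_R+1, rose (1.47, adjusted p = 0.0355; at equal totals 2 rose), and their sum was 274 to 567 in MOS, against 271 to 342 in CON. The 2 endothelial entries summed to 2377 to 3545 in MOS, against 3169 to 3564 in CON, and neither was called. The 2 pluripotent and germ cell entries summed to at most 3.37 per CON library, 9.52 per LOS library and 3.61 per MOS library and were not tested.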
